A study of Mus musculus with 6 samples.

Results

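The ErbB receptor genes Egfr, Erbb2 and Erbb3, the receptor inhibitor gene Lrig1 and the ligand genes Egf, Ereg, Areg, Hbegf, Tgfa and Btc were measured in tuft cells of the mouse ileum. These 10 genes were chosen by name, as receptors, ligands and an inhibitor of the EGF receptor pathway, from the 23420 genes of the deposited expression table. The 6 libraries form 1 group, and the labels give each as a mouse replicate of strain C57BL/6J and genotype Gfi1b-eGFP. In such animals, described in the methods as Gfi1b-eGFP/+, 1 allele of Gfi1b carries the green fluorescent protein that marks tuft cells, and viable GFP-positive, EpCam-positive and CD45-negative epithelial cells were sorted. Age, sex and treatment are not in the labels of the libraries, and all libraries share the reporter allele, so no library without it and no GFP-negative epithelium could be compared. The values are in TPM (transcript-per-million units), an estimate of a gene's share of all transcripts that is corrected for transcript length, so that levels of different genes within a library can be set side by side. The methods describe full-length libraries, for which this holds. The labels also list a 3′ polyA and a droplet preparation, for which a correction for length would bias comparisons between genes, and which preparation a library had was not tested.

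ErbB receptors are tyrosine kinases of the cell surface that work as dimers. EGFR binds EGF, transforming growth factor alpha, amphiregulin, betacellulin, epiregulin and heparin-binding EGF-like growth factor, ERBB2 has no known ligand of its own and serves as the partner of the other receptors, and ERBB3 binds neuregulins, has weak kinase activity and recruits PI3 kinase. In the small intestine EGF family ligands support the growth of crypt stem cells, and LRIG1, a transmembrane protein that lowers ErbB receptor levels, is a marker and brake of stem cell division.

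The libraries of sorted ileal tuft cells held abundant transcripts of Erbb3 and Erbb2 but few of Egfr. Of the 6 ligand genes chosen, Hbegf, Tgfa and Areg had the most transcripts. Nrg4, a ligand gene outside the 10, had a mean between those of Tgfa and Areg. Of the 10 genes, 8 were listed above 0 in every library, a state that held for 47.2% of all genes in the table. Egf and Ereg were the exceptions. A mean of at least 10 TPM was reached by 5 of the 10 genes, against 29.8% of all genes. TPM keeps no number of reads, so the depth of the libraries is unknown and a detection limit is lacking for values of 0 and for the low values of Egfr, Btc, Ereg and Egf.

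The libraries resembled one another, with Spearman correlations across genes of 0.915 to 0.937 over the 15 pairs, and 13044 to 13308 genes per library were above 0. The ribosomal RNA precursor Rn45s took 23.1% to 32.6% of all TPM, which lowers the values of all other genes by a share that differs between libraries. All 13 tuft cell markers found in the table were above 0 in every library, a state that held for 47.2% of all genes. Their summed level ran from 7136 to 12022 TPM (median 7907 TPM). Neither value sets tuft cells apart from Paneth cells or enterocytes. The listed genes of both were also above 0 in every library, with median sums of 8575 and 10881 TPM. Transcripts of other epithelial cells were present too, at summed levels of 4283 to 28810 TPM for 8 Paneth cell genes, 1053 to 5118 TPM for 7 goblet cell genes, 7703 to 16268 TPM for 8 enterocyte genes and 342.2 to 821.6 TPM for 7 stem cell genes, and 374.1 to 529.5 TPM for 9 enteroendocrine genes. The larger part of the enteroendocrine sum was Sct in every library, at 330.83 to 473.65 TPM. In a sorted population, a larger number of cells of a type and more RNA per cell cannot be told apart. What share of each transcript came from tuft cells was not tested.

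The ligands share a fold that is held by 6 cysteines. To show how alike the more and the less abundant ligands are in this receptor-binding part, the coding bases of the single stretch with this cysteine spacing are given for 4 of them, 5′ to 3′, from the GENCODE M21 transcripts on GRCm38. Codons of the 6 cysteines are in capitals. Each stretch is 108 bases of coding exon and has 7, 4, 10, 1 and 8 codons between successive cysteines. The search fixed the number of cysteines and the spacings of 7, 1 and 8 codons, and allowed small differences in the remaining spacings. The shared spacing is thus largely a product of the search.
Tgfa: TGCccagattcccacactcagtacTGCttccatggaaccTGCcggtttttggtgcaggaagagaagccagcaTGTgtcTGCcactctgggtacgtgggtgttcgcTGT
Areg: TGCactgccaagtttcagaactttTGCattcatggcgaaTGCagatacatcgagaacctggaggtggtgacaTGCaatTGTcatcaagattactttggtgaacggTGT
Btc: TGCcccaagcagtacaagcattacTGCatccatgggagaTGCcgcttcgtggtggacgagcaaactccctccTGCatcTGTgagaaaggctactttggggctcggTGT
Ereg: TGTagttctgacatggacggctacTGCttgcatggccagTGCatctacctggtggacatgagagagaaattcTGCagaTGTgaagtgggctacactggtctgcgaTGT

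Tgfa lies on the plus strand of chromosome 6 from 86195223 to 86275719. Areg (chromosome 5, 91139599 to 91148432), Ereg (91074622 to 91093646) and Btc (91357261 to 91402994, on the opposite strand) are neighbours, and with the related ligand gene Epgn they span 375531 bases of chromosome 5. Of the neighbours, Areg had the highest mean, while those of Btc and Ereg were close to each other. The precursor proteins have 159 codons for Tgfa, 248 for Areg, 177 for Btc and 162 for Ereg, not counting the stop codon. Sequences of the other genes were not used here.

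**Figure D1:**
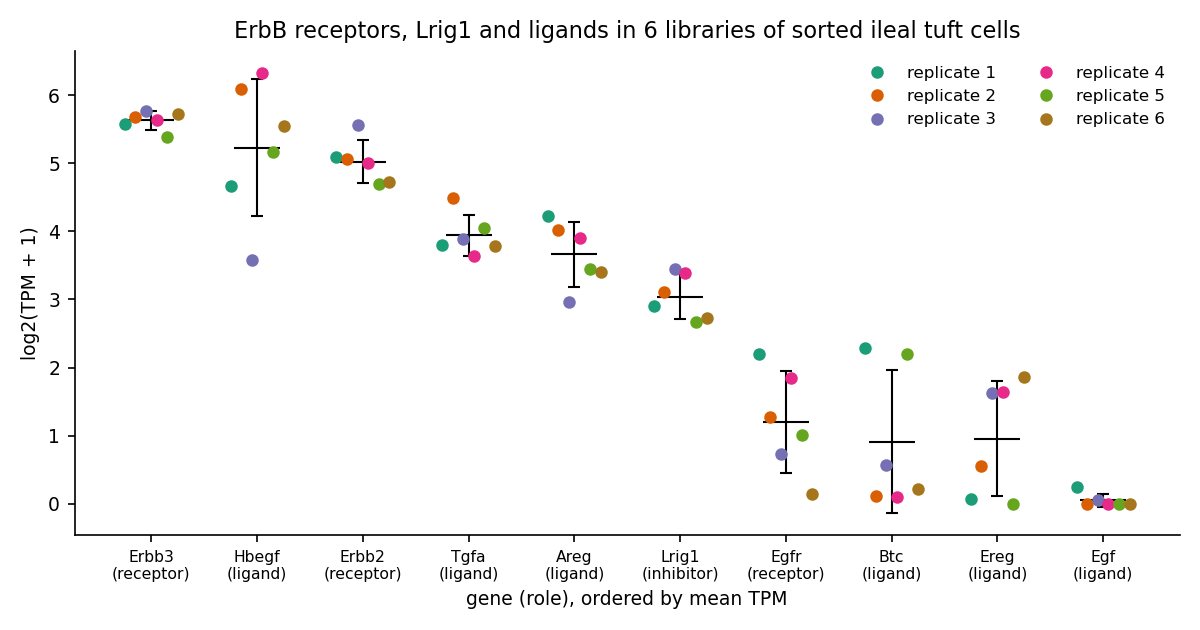
Levels of the 10 genes on the log2(TPM + 1) scale (vertical axis), ordered by mean TPM. Coloured points are the 6 libraries, and horizontal marks with bars give the mean and SD. Erbb3 points lie close together while those of Hbegf are spread widely, and Egfr, Btc, Ereg and Egf form the low end.

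Erbb3, the neuregulin receptor, was the most abundant of the 10 genes on average over the 6 libraries. Without replicate 3 the order of the leading genes turned, with a mean of 50.3 TPM for Hbegf and 47.6 TPM for Erbb3. It was at 46.9, 50.0, 53.7, 48.8, 40.9 and 51.5 TPM in replicates 1 to 6, a mean of 48.6 ± 4.44 TPM (SD, n = 6). No library stood far from the rest, and Erbb3 was the highest receptor in 6 of 6 libraries. It lay at the 82.2nd to 86.1st percentile of the genes above 0 in each library. Erbb3 lies on the minus strand of chromosome 10 from 128567523 to 128589652, with 28 exons in the transcript with the longest coding sequence.

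Erbb2, the shared partner receptor, was at 32.9, 32.5, 46.3, 31.2, 24.8 and 25.4 TPM in replicates 1 to 6. Replicate 3 was the highest and replicates 5 and 6 were the lowest, and the mean was 32.2 ± 7.77 TPM (SD, n = 6). Erbb2 lies on chromosome 11 from 98412470 to 98437716 on the plus strand, and its exons share 9 bases with Mien1 on the opposite strand. Mien1 had 123.2 to 197.2 TPM, and the alignment settings given in the methods hold no restriction by strand, so reads of those bases cannot be told apart.

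Egfr, the receptor of all 6 ligands chosen, was at 3.60, 1.43, 0.66, 2.59, 1.02 and 0.11 TPM (replicates 1 to 6), and the mean was 1.57 ± 1.30 TPM (SD, n = 6). It was above 0 in every library, but its highest value was 32.7 times its lowest. Its values did not overlap those of Erbb2, Erbb3 or Lrig1. Of the summed TPM of the 3 receptors, Egfr made up 0.143% to 4.32% (median 1.62%). Erbb3 was 13.0 to 468.5 times Egfr (median 37.5), and the upper end of this range rests on the 0.11 TPM of Egfr in replicate 6. Egfr lies on the plus strand of chromosome 11 from 16752203 to 16918158.

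Lrig1, the receptor inhibitor, was at 6.49, 7.62, 9.95, 9.45, 5.35 and 5.62 TPM (replicates 1 to 6), and the mean was 7.41 ± 1.95 TPM (SD, n = 6). Replicates 3 and 4 were the highest, and no library stood apart. It was thus above Egfr and below Erbb2 and Erbb3 in each library. Lrig1 lies on the minus strand of chromosome 6 from 94604529 to 94700158. Its exons share 137 bases with those of Slc25a26, which is read from the opposite strand and had 0 to 7.75 TPM.

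The question of which receptor leads in these cells was addressed by comparing all 6 pairs of the 3 receptors and Lrig1 within libraries, with an exact permutation test (two-sided, flipping the sign of each library) of the difference in log2(TPM + 1). All 6 pairs differed in the same direction in 6 of 6 libraries, and all passed 0.05 after Benjamini-Hochberg adjustment over the 6 pairs. The exact permutation p was 0.03125 for each pair before and after adjustment, the smallest that 6 libraries allow. Erbb3 exceeded Egfr by 4.42 ± 0.797, and Erbb2 exceeded Egfr by 3.82 ± 0.765, on the log2 scale (SD, n = 6). Lrig1 exceeded Egfr by 1.84 ± 0.740 on the same scale. The smallest difference was that between Erbb3 and Erbb2, at 0.61 ± 0.256, and it was smallest of all in replicate 3, at 0.21. In TPM, Erbb3 was 1.16 to 2.03 times Erbb2 (median 1.55).

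**Figure D2:**
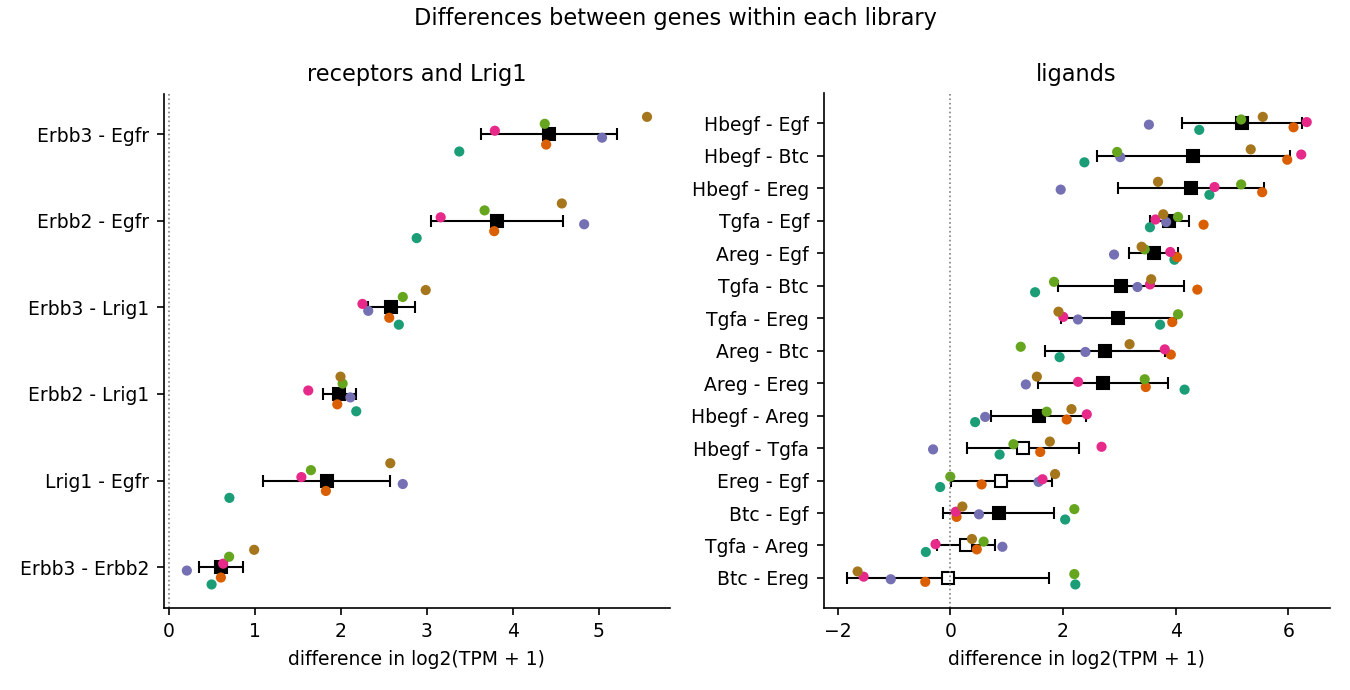
Differences in log2(TPM + 1) between genes within each library (horizontal axis), for receptors and Lrig1 on the left and ligands on the right. Coloured points are the 6 libraries, in the colours of the plot of levels; squares and bars are the mean and SD, filled where the adjusted p of the exact sign-flip permutation test is under 0.05. All 6 pairs on the left and 11 of 15 on the right are filled.

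Among the ligands, Hbegf, whose membrane-bound precursor is cut to release heparin-binding EGF-like growth factor, was the most abundant in 5 of 6 libraries. It was at 24.5, 67.2, 11.0, 79.3, 34.8 and 45.8 TPM in replicates 1 to 6, a mean of 43.8 ± 25.9 TPM (SD, n = 6). Replicates 2 and 4 were high and replicate 3 was low, a 7.22-fold range, and in replicates 2 and 4 Hbegf exceeded Erbb3 as well. Its locus on chromosome 18 runs from 36504927 to 36515805 on the minus strand.

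Tgfa, transforming growth factor alpha, was at 12.9, 21.6, 13.8, 11.5, 15.5 and 12.7 TPM (replicates 1 to 6), and the mean was 14.7 ± 3.63 TPM (SD, n = 6). Replicate 2 was the highest. Tgfa was the highest of the 6 ligand genes in 1 library, replicate 3, in which Hbegf was low. The Tgfa exons share 118 bases with the opposite-strand gene model Gm43917.

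Areg, amphiregulin, was at 17.8, 15.3, 6.80, 14.0, 9.94 and 9.53 TPM (replicates 1 to 6), and the mean was 12.2 ± 4.12 TPM (SD, n = 6). Replicates 1, 2 and 4 were above the other libraries. Amphiregulin is also known from immune cells, so markers of mast cells, macrophages and T cells are given beside it. No list of innate lymphoid cell markers was used. The mast cell list summed to 100.2 to 158.2 TPM, nearly all of it Kit, with Cma1 at 0 in every library and Mcpt2 at 0 in 5 of 6. Mcpt1 was at 10.9 TPM in replicates 3 and 4 and at most 2.39 TPM elsewhere, and Cpa3 was at 4.86 TPM in replicate 4 and at 0 elsewhere. The macrophage list summed to 3.14 to 19.8 TPM and the T cell list to 122.2 to 286.0 TPM, of which Ptprc had 74.2 to 170.8 TPM. In replicates 5 and 6, where the T cell list was highest, the larger part was Gzma, at 140.7 and 157.7 TPM, against 10.4 to 36.0 TPM in the other libraries. Their part in the Areg level was not tested.

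Hbegf, Tgfa and Areg together made up 92.4% to 99.5% of the summed TPM of the 6 ligands (median 95.2%). Epgn and Nrg4, ligand genes outside these 6, are not in this sum and had means of 6.21 and 13.0 TPM. The other ligands of the 6 were low and uneven. Btc, betacellulin, was at 3.89, 0.08, 0.48, 0.07, 3.60 and 0.16 TPM (replicates 1 to 6), and the mean was 1.38 ± 1.84 TPM (SD, n = 6), so that replicates 1 and 5 carried nearly all of it. Ereg, epiregulin, was at 0.05, 0.47, 2.08, 2.11, 0 and 2.63 TPM, with a mean of 1.22 ± 1.18 TPM (SD, n = 6). Ereg was thus lowest in replicates 1 and 5, where Btc was highest, although values this low cannot be set against a counting error. The longest Ereg transcript shares 141 bases with the opposite-strand gene model Gm19610.

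Egf itself was listed at 0 in 4 of 6 libraries, at 0.04 TPM in replicate 3 and at 0.19 TPM in replicate 1, a mean of 0.0383 ± 0.0760 TPM (SD, n = 6). Exons of Egf overlap those of 6330410L21Rik and Gm42697 on the opposite strand, by up to 607 bases. EGF is known as a Paneth cell product in the crypt. The summed Paneth cell list was highest in replicates 4 and 5, at 28810 and 17586 TPM, and Egf was listed at 0 in both. That list was at 4283 TPM or more in every library, and the part of Paneth cells in the Egf values was not tested.

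All 15 pairs of ligands were compared in the same way as the receptors. Of these, 11 passed 0.05 after adjustment over the 15 pairs (exact sign-flip permutation p = 0.03125, adjusted p = 0.0426 for each), and in all 11 the more abundant gene was higher in 6 of 6 libraries. All 11 share the smallest p that 6 libraries allow, so each call depends on how many other pairs reach it. Hbegf exceeded Areg by 1.57 ± 0.838, Ereg by 4.27 ± 1.29 and Btc by 4.32 ± 1.72 on the log2 scale (SD, n = 6). Tgfa exceeded Btc by 3.03 ± 1.11 and Ereg by 2.98 ± 1.02, and Areg exceeded them by 2.75 ± 1.07 and 2.70 ± 1.16. Each of Hbegf, Tgfa and Areg also exceeded Egf, by 3.61 to 5.18. As Egf was at 0 in 4 libraries, the size of these differences is set by the pseudocount, and it was 6.54 to 8.17 at a pseudocount of 0.1 and 9.07 to 10.7 at 0.01. Btc exceeded Egf by 0.86 ± 0.987, but this call was lost (adjusted p = 0.144, exact sign-flip permutation test) when values under 0.1 TPM were set to 0.

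The remaining 4 ligand pairs did not pass. Hbegf exceeded Tgfa in 5 of 6 libraries, by 1.29 ± 1.00 (exact sign-flip permutation p = 0.0625, adjusted p = 0.0781), and Tgfa exceeded Areg in 4 of 6, by 0.28 ± 0.522 (exact p = 0.25, adjusted p = 0.268). Ereg exceeded Egf in 4 of 6 libraries, by 0.91 ± 0.895 (exact p = 0.125, adjusted p = 0.144). Btc and Ereg differed by -0.04 ± 1.80 (exact p = 1, adjusted p = 1), with Btc higher in 2 libraries and Ereg in 4.

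Over all 10 genes, the order by mean TPM was Erbb3, Hbegf, Erbb2, Tgfa, Areg, Lrig1, Egfr, Btc, Ereg and Egf. Since these means set the order, differences between neighbours are given without a test. Erbb2 lay above Tgfa, by 1.08 ± 0.435 on the log2 scale, and Lrig1 above Egfr in 6 of 6 libraries. The other neighbours were closer: Erbb3 was above Hbegf in 4 libraries and Hbegf above Erbb2 in 4, by differences of 0.40 ± 1.04 and 0.21 ± 1.23 that are smaller than their SD. Areg was above Lrig1 in 5 of 6 libraries, by 0.62 ± 0.609, and Egfr above Btc in 3 of 6, by 0.29 ± 1.04.

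The spread between libraries set Erbb3 and Hbegf apart, although their mean levels were alike. The SD of log2(TPM + 1) was 0.134 for Erbb3, and 21 of 2842 genes whose mean TPM lay within 2-fold of that of Erbb3 (0.739%) had a smaller one. For Hbegf the SD was 1.01, and 97.3% of 3054 genes of similar mean had a smaller one. Rescaling between libraries, rescaling without Rn45s, a pseudocount of 0.1 and leaving out each library in turn kept these shares at 0.213% to 2.55% for Erbb3 and 90.2% to 98.2% for Hbegf. The corresponding shares moved more under the same alternatives. They were 20.9% for Erbb2 (6.73% to 31.6%), 9.58% for Lrig1 (5.07% to 15.9%) and 11.3% for Tgfa (1.34% to 21.4%), the lowest share of Erbb2 being that without replicate 3 and the lowest of Tgfa that without replicate 2. For Areg the share was 36.0% (23.8% to 47.1%), for Egfr 33.9% (21.99% to 45.5%) and for Btc 76.5% (57.6% to 81.2%). Ereg, at 49.2% (41.9% to 57.8%), and Egf, at 46.5% (18.9% to 58.2%), lay on either side of the middle of similar genes, depending on the alternative. These shares are descriptions without a test, and Erbb3 and Hbegf were singled out after their values were seen.

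**Figure D3:**
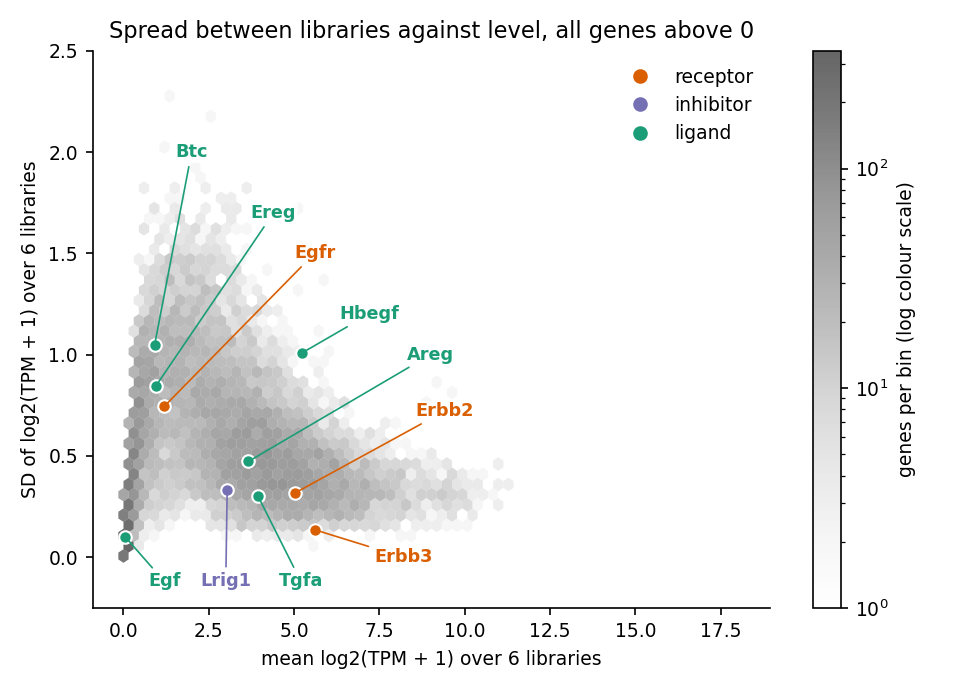
SD of log2(TPM + 1) over the 6 libraries (vertical axis) against the mean (horizontal axis) for all genes above 0 in any library, as grey bins shaded by the number of genes on a log scale. Coloured points mark the 10 genes: Erbb3 lies at the lower edge of the cloud, at an SD of 0.134, and Hbegf near the upper edge for its level, at 1.01.

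Whether the levels followed the cell type makeup of the sort was examined by correlating each of the 10 genes with the median log2(TPM + 1) of the tuft, Paneth, goblet, enterocyte and stem cell lists across the 6 libraries. Of these 50 relations, none passed 0.05 after adjustment (smallest adjusted p = 0.789 for Pearson's r and 0.417 for Spearman's rho, exact permutation over 720 pairings), while 2 did so before it for Pearson's r and 3 for Spearman's rho. With 6 libraries, even the smallest possible p of a single relation could not pass adjustment over 50 relations on its own. Areg was higher where the tuft cell list was higher (r = 0.91, exact permutation p = 0.0250, adjusted p = 0.789; rho = 0.94, exact p = 0.0167, adjusted p = 0.417; n = 6), and leaving out replicates 1 and 2, whose list values lay farthest from the middle, gave r = 0.79. Egfr had a similar relation to the tuft cell list (r = 0.84, exact permutation p = 0.0431, adjusted p = 0.789; rho = 0.94, exact p = 0.0167, adjusted p = 0.417; n = 6), with r = 0.95 without the same libraries. Areg was lower where the goblet cell list was higher (r = -0.74, exact permutation p = 0.0861, adjusted p = 0.789; rho = -0.89, exact p = 0.0333, adjusted p = 0.556; n = 6), with r = -0.94 without replicates 2 and 6. Median-of-ratios rescaling weakened this relation of Areg to the goblet cell list to -0.55 over all 6 libraries. Rescaling without Rn45s gave -0.64. Leaving out each library in turn gave -0.84 to -0.69.

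The labels name no batch. Replicates 1 to 3 and 4 to 6 were nevertheless centred separately, as the transcript Gm20594 was at 15588 to 21283 TPM in the first set and at 51804 to 56441 TPM in the second. The r with the tuft cell list was then 0.98 for Areg (exact permutation p = 0.0278 over 36 pairings within sets) and 0.84 for Egfr (exact p = 0.0833). The smallest exact permutation p that these 36 pairings allow is 0.0278. Other lists came as close after this centring. For Egfr, r was 0.93 with the enterocyte list (exact permutation p = 0.0278) and 0.92 with the Paneth cell list (exact p = 0.0556), and for Areg it was 0.89 with the enterocyte list (exact p = 0.0833). Lrig1 is a stem cell marker in the crypt, and its relation to the stem cell list is given for that reason. For Lrig1, r was 0.48 with the stem cell list (exact permutation p = 0.347, adjusted p = 0.789, n = 6) and 0.17 with the tuft cell list (exact p = 0.719, adjusted p = 0.916).

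**Figure D4:**
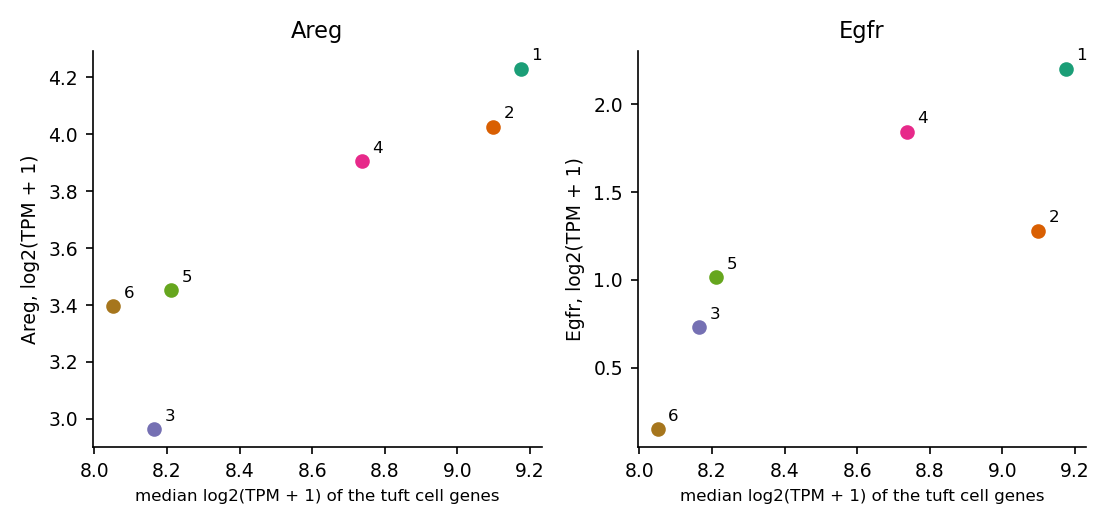
Areg (left) and Egfr (right) on the log2(TPM + 1) scale (vertical axes) against the median log2(TPM + 1) of 13 tuft cell genes (horizontal axes), with 1 point per library numbered by replicate. Replicates 1, 2 and 4 are high on both axes in both plots, and neither relation passed 0.05 after adjustment.

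The rest of the pathway was described from 7 lists with 65 genes in all, of which Hras was found under its older symbol Hras1. Of these, 53 were above 0 in every library and 36 had a mean of at least 10 TPM, against the 47.2% and 29.8% of all genes given above. Among the other ErbB genes the fourth receptor, Erbb4, and the neuregulin genes Nrg1 and Nrg2 were listed at 0 in every library, and Nrg3 did not exceed 0.06 TPM. Nrg4, which encodes a neuregulin that binds ERBB4, was the exception, at 21.4, 10.3, 17.6, 13.4, 2.78 and 12.4 TPM in replicates 1 to 6 and a mean of 13.0 ± 6.38 TPM (SD, n = 6). It was lowest in replicate 5. The exons of Nrg4 share 166 bases with Fbxo22 on the opposite strand, which had 6.08 to 38.2 TPM and was also lowest in replicate 5. Epgn, epigen, which acts through EGFR, ranged from 0.26 to 15.4 TPM with a mean of 6.21 ± 5.61 TPM (SD, n = 6).

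Genes for the release of ligands from the membrane were present, with 7 of 8 above 0 in every library, against 47.2% of all genes. Adam10, a sheddase of EGF and betacellulin, had 44.2 ± 8.06 TPM and Adam17, the main sheddase of the other ligands, had 11.8 ± 6.27 TPM (SD, n = 6 each). Adam17 was at 3.95 and 5.38 TPM in replicates 3 and 5 and at 10.05 TPM or more elsewhere. Adam15 had 45.8 ± 12.4 TPM, and Rhbdf1, which encodes a rhomboid-like partner of ADAM17, had 24.6 ± 7.79 TPM. Adam12 was listed at 0 in every library.

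Of 16 genes for feedback and receptor turnover, 13 were above 0 in every library, against 47.2% of all genes. Cblc, a ubiquitin ligase of the CBL family, had the highest mean, 35.5 ± 6.69 TPM, followed by Errfi1, a feedback inhibitor that binds ErbB kinases, at 25.5 ± 17.4 TPM and by Cblb at 19.6 ± 3.30 TPM (SD, n = 6 each). Errfi1 was uneven, from 8.80 TPM in replicate 3 to 56.1 TPM in replicate 2. Lrig2 and Lrig3, relatives of Lrig1, were below it on average, at 3.82 ± 1.47 and 4.01 ± 1.59 TPM. Spry1, Spry4 and Spred1, which restrain Ras signalling, were at 0 in at least 1 library.

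All 9 adaptor and Ras genes, all 7 genes of the MAP kinase cascade and all 8 genes of the PI3 kinase branch were above 0 in every library. This held for 47.2% of all genes. Shc1, Hras and Nras led the first list, at 26.9 ± 7.91, 24.7 ± 6.86 and 24.7 ± 6.45 TPM. Mapk3, which encodes the kinase ERK1, had 162.7 ± 39.0 TPM and Map2k2, its upstream kinase, 101.9 ± 20.9 TPM. Akt1 had 28.6 ± 8.29 TPM and Pik3r2, a regulatory subunit of PI3 kinase, 23.5 ± 5.68 TPM (SD, n = 6 each). The median over genes of the mean level was 46.6 TPM for the MAP kinase cascade and 11.7 TPM for the PI3 kinase branch, against 9.82 TPM for the 10 genes above and 1.24 TPM for all genes.

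**Figure D5:**
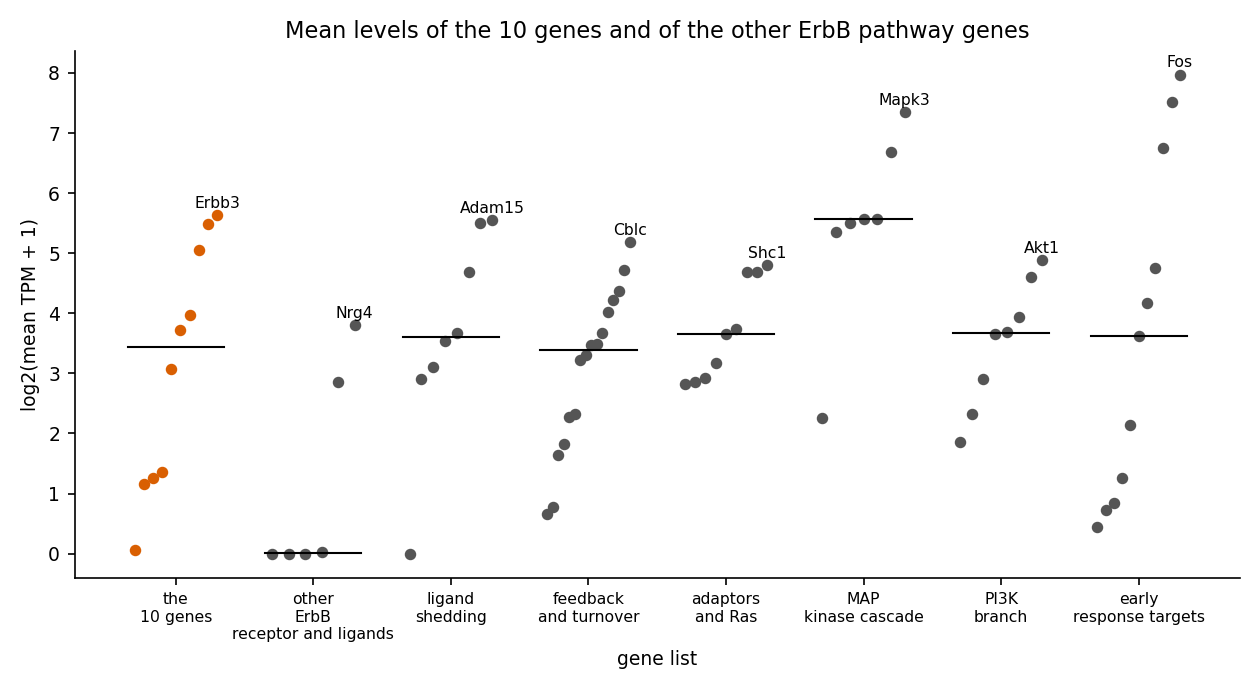
Mean level over the 6 libraries, as log2(mean TPM + 1) (vertical axis), of each of the 10 genes (orange) and of each gene in 7 other lists of the pathway (grey); horizontal lines are list medians and the top gene of each list is named. Most of the other ErbB receptor and ligand genes lie at or near 0, while the MAP kinase list has the highest median, 46.6 TPM.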

How the data were processed

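RNA from sorted tuft cells was amplified by a modified SMART-Seq2 protocol. A polyA and a droplet preparation are listed beside it in the labels. The authors used Bowtie to align read pairs to mouse transcripts of UCSC mm10 and deposited gene levels as TPM from RSEM. They tested differential expression with DESeq2, which was not used here. TopHat is also named in the submitters' processing notes, with no role given. Columns were matched to samples by replicate number. Every gene is in the table once and each library sums to 1000000 TPM within rounding.

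Values were used as deposited, on the log2(TPM + 1) scale for differences and relations. Genes were compared within libraries by an exact sign-flip permutation test over 64 assignments, since the Mann-Whitney test that the methods name treats the values as unpaired. It was run as an alternative over 924 assignments. Relations used exact permutation over 720 pairings. Gene positions came from GENCODE M21 on GRCm38, the assembly of mm10, matched by symbol, with other gene models than the authors'. The transcript with the longest coding sequence was used. Synonyms of RefSeq GRCm38.p6 matched 2 further genes of the lists.

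Alternatives were pseudocounts of 0.1 and 0.01, setting values under 0.1 TPM to 0, median-of-ratios rescaling, rescaling without Rn45s, the mean in place of the median of a marker list, centring within sets of libraries and leaving out each library. The statistics were tested on simulated data. The genes, lists and tests were chosen with earlier results of these data known. By rule, all 10 genes and the 3 most abundant genes of each list or those at 0 could be named; others named were chosen after their values were seen. Labels number the libraries as mouse replicates and do not say whether any of them pools several mice. The p-values take these 6 libraries as the units. Tests used scipy 1.17.1 with numpy 2.4.6, tables pandas 2.3.3 and figures matplotlib 3.10.9, in Python 3.11.15.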

Additional observations from a re-analysis of the deposited data

Results flagged for a closer look

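In 7 of 85 sets of values screened (the 10 genes, the 65 pathway genes and 10 summed marker lists), 1 library lay farther from its nearest neighbour than Dixon's 95% critical value for 6 libraries. Chance gives about 1 in 20 for normally distributed values, or 4.25 of 85, and 20.7% of all genes above 0 in any library met the same criterion. Of the 10 genes, 1 did so. Egf was at 0.19 TPM in replicate 1 and at most 0.04 TPM elsewhere, and its mean fell from 0.0383 to 0.008 TPM without that library.

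Among pathway genes, Spred1 was at 2.59 TPM in replicate 6 and at most 0.89 TPM elsewhere, and Dusp5 at 7.64 TPM in the same library and at most 3.55 TPM elsewhere. Braf was at 0.51 TPM in replicate 4 and at least 3.95 TPM elsewhere. Pik3cb was at 5.88 TPM in replicate 2 and at most 2.62 TPM elsewhere, and Akt2 at 20.5 TPM in replicate 3 and at most 11.65 TPM elsewhere. The summed fibroblast list was at 61.96 TPM in replicate 5, nearly all of it Dcn at 59.4 TPM, and at 0 in the other libraries. In replicate 5, Egfr, Areg, Hbegf and Tgfa lay within the range of the other libraries and Erbb2, Erbb3 and Lrig1 were at their lowest. These are values as deposited, before any rescaling. Replicate 5 also had the highest share of Rn45s, at 32.6% of all TPM. Its factor in the median-of-ratios rescaling was the lowest, at 0.899. The parts of fibroblast transcripts and of this scaling in the gene levels were not tested.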

How the results depend on the processing

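The number of receptor pairs past the threshold was 6, and that of ligand pairs 11, under every pseudocount and rescaling, and the exact Mann-Whitney test gave 6 and 12, the added pair being Ereg and Egf (difference 0.91, adjusted p = 0.0433). Neither choice can turn the order of genes within a library, so this is no sign of stability. Setting values under 0.1 TPM to 0 left 10 ligand pairs, without Btc and Egf. Btc and Ereg changed order at a pseudocount of 0.01 (0.22) and with single libraries left out (-0.50 to 0.28), and the pair passed the threshold under no setting. Rescaling without Rn45s raises every value, and the means moved beyond 1 SD for Erbb2 (44.0 TPM), Erbb3 (67.0 TPM), Lrig1 (10.1 TPM), Areg (16.8 TPM) and Tgfa (20.2 TPM). With each library left out in turn, 5 libraries allow no p under 0.0625, and the mean lay between 1.16 and 1.86 TPM for Egfr, 36.7 and 50.3 TPM for Hbegf, 0.878 and 1.64 TPM for Btc, and 0.008 and 0.046 TPM for Egf, the lowest values of Btc and Egf being those without replicate 1. No relation to a marker list passed after adjustment with a pseudocount of 0.1, the mean of the list, either rescaling, centring within sets or any library left out, the alternatives run for relations. With so few libraries and 50 relations, no single relation could pass on its own, so this too is no sign of stability. The alternatives for the spread of each gene were chosen after the data were seen. No paired analysis of groups was possible because the libraries form 1 group; genes were paired within libraries. As depth is unknown, how precise the values below a few TPM are cannot be given.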

Other observations

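Some early response genes, a class that many stimuli including ErbB signalling are known to raise, had high levels in these sorted cells. The cause of these levels was not tested. Fos had 250.0 ± 33.5 TPM, Jun 182.8 ± 49.8 TPM and Egr1 107.0 ± 22.9 TPM (SD, n = 6 each). Of the 11 genes of this list, 7 were above 0 in every library and 6 had a mean of at least 10 TPM. Of all genes, 47.2% and 29.8% met these criteria. Other members of the list were low. Etv4 and Etv5, which follow Ras and MAP kinase activity in many tissues, had means of 1.40 ± 1.75 (SD) and 0.358 ± 0.301 TPM, and Dusp4 and Fosl1 had 0.785 ± 0.709 and 0.655 ± 0.656 TPM.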
